A study of Homo sapiens with 9 samples.

Results

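The proteasome subunit and assembly genes were followed in MOLM13 cells, a human acute myeloid leukaemia line, after knockdown of the RNA helicase DDX41. The genes were the rows of the count table whose symbol begins with PSMA, PSMB, PSMC, PSMD, PSME, PSMF or PSMG and a digit, which gave 48 of 30017 genes. Another 4 rows with such a beginning were left out, namely the antisense genes PSMD5-AS1, PSMD6-AS2 and PSMG3-AS1 and PSMC3IP, a meiotic recombination factor that is no proteasome gene. All cells carried a pLKO-GFP lentiviral vector and were sorted for GFP on day 4 after transduction. They expressed the control hairpin (sh-Control) or a hairpin against DDX41 (Sh-DDX41_1 or Sh-DDX41_2 in the labels, written shDDX41 #1 and shDDX41 #2 here), with 3 libraries per group lettered A, B and D. Each DDX41 arm rests on 1 hairpin sequence, and the cells were a sorted pool of 1 line, so a p-value measures only the spread between these libraries, for which separate cultures are not stated.

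The 26S proteasome is the ATP-driven protease that destroys proteins tagged with ubiquitin. Its core particle is a stack of outer alpha rings and inner beta rings, with the cutting sites on PSMB5, PSMB6 and PSMB7, and its cap (the 19S regulatory particle) binds, unfolds and feeds substrates through a base with ATPases and a lid. In blood cells and under interferon, PSMB8, PSMB9 and PSMB10 can replace the constitutive catalytic subunits to form the immunoproteasome, which favours peptides for MHC class I, and the PSME activators can take the place of the cap. Dedicated chaperones assemble the parts, and the transcription factor NFE2L1 raises the subunit genes together when proteasome capacity is short.

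Sequence upstream of 4 starts is shown for 2 neighbouring pairs that the values below turn on. PSMB9 and TAP1, the peptide transporter subunit of class I presentation, lie head to head on chromosome 6 with 487 bases between their RefSeq starts (GRCh38.p14), and both rose with both hairpins. PSME1 and PSME2, the partners of the PA28 activator, lie on chromosome 14 and differed in their response to shDDX41 #1. Each run gives the 250 bases before the start, 5′ to 3′ on the gene's strand, and capitals mark matches on either strand to TGACNNNGC (a short form of the antioxidant response element), GAAA, 2 bases of any kind and GAAA (interferon regulatory factor type), TTCNNNGAA (STAT type) or CCAAT. No match of 1 motif overlapped one of another in these 4 runs, whereas the 2 interferon regulatory factor type matches of TAP1 overlap each other.
PSMB9 (chr6:32853942-32854191, + strand): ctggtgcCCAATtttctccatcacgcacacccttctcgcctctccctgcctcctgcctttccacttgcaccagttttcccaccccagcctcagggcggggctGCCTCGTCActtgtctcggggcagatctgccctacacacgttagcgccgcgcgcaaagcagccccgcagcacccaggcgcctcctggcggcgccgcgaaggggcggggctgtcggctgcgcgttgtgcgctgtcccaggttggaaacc
TAP1 (chr6:32853705-32853954, - strand): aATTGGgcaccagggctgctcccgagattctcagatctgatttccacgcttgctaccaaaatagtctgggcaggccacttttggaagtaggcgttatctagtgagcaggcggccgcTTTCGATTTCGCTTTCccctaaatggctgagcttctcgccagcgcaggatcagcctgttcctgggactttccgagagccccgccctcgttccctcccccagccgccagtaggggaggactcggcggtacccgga
PSME1 (chr14:24135944-24136193, + strand): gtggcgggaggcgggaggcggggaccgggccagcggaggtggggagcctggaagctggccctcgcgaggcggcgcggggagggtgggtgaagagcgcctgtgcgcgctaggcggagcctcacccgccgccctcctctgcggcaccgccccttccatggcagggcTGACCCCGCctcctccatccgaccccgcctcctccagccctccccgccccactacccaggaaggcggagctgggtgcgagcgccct
PSME2 (chr14:24146611-24146860, - strand): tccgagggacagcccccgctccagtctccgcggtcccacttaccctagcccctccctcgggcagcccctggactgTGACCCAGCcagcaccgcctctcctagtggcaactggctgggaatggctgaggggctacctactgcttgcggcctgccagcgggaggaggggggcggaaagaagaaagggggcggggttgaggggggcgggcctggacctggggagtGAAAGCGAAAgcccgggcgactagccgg

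RefSeq windows running from 250 bases before to 50 bases after a start were matched for 42 of the 48 genes, 51 windows in all. The TGACNNNGC motif was present in 29.4% of these windows against 13.3% of all 35116 windows, and the interferon regulatory factor type motif in 13.7% against 3.57%. The STAT-type motif was present in 15.7% against 7.66%, and CCAAT in 39.2% against 34.6%. In the printed runs TGACNNNGC began 148 bases before the PSMB9 start, 86 before that of PSME1 and 175 before that of PSME2, and an interferon regulatory factor type match lay 28 bases before that of PSME2. The full window of PSME1 also held an interferon regulatory factor type match, one that does not lie wholly within the 250 printed bases. These are matches of letters and no sites of binding.

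The libraries held 16385238 to 20510032 counts, of which the members took 0.596% to 0.697%. Levels are given as CPM, each gene's count scaled to the library total after TMM correction, and calls are adjusted p-values under 0.05 from edgeR's quasi-likelihood test over 12712 genes. The targeted gene DDX41 was at 117, 115 and 113 CPM in the control libraries, 12.2, 12.9 and 9.95 with shDDX41 #1 and 38.9, 39.9 and 42.5 with shDDX41 #2, so the first hairpin was the stronger. Library D of shDDX41 #1 stood apart, with a chi-square per degree of freedom of 17.6 and 19.2 against libraries A and B, for which the same value was 2.91. The control libraries also differed from one another, at 8 for A against B, 10.1 for A against D and 8.35 for B against D. Within shDDX41 #2 the value was 2.45 to 3.25. All 10 myeloid markers were detected, with summed levels of 2460 to 2650 CPM in control, 2514 to 2618 with shDDX41 #1 and 3390 to 3452 with shDDX41 #2. Of these KIT had few counts, 9, 18 and 9 in control and 8, 8 and 4 with shDDX41 #1. The higher sum with shDDX41 #2 lay in LYZ (lysozyme), at 877 to 987 CPM in control and 1795 to 1833 with that hairpin, and without it the other 9 markers summed to 1568 to 1664 CPM in control, 1662 to 1704 with shDDX41 #1 and 1557 to 1641 with shDDX41 #2. T cell, B cell, erythroid and epithelial markers summed to at most 2.18 CPM in any library.

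Most proteasome genes did not pass the test in any comparison, and more of the called genes were lower than higher. With shDDX41 #1, 15 of the 46 tested members passed, 3 higher and 12 lower, which is 32.6% against 47.8% of all tested genes. With shDDX41 #2, 8 passed, 2 higher and 6 lower, which is 17.4% against 25% of all tested genes, of which 11.6% were higher and 13.4% lower. Between the hairpins, 16 passed, 3 higher and 13 lower with shDDX41 #1, which is 34.8% against 48.8% of all tested genes, 24.6% of them higher and 24.2% lower. The median log2 fold change of the tested members was -0.10 for shDDX41 #1 and -0.04 for shDDX41 #2, with medians of 0.01 and -0.01 over all tested genes. Less RNA per cell and fewer cells of a kind cannot be told apart in such bulk libraries.

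With the stronger hairpin, lower calls made up 12 of 46 members, against 24.1% of all tested genes called lower, and higher calls 3 of 46 against 23.7%, so the first share lies near that of the whole table and the second below it. Among genes within the members' own range of mean CPM, 53.3% were called with shDDX41 #1 and 28.4% with shDDX41 #2. Groups did not overlap for 18 members with shDDX41 #1 against 53.1% of all tested genes, for 14 with shDDX41 #2 against 43.8%, and for 16 between the hairpins against 57.7%. Without library D of shDDX41 #1, 25 members passed for that hairpin, 3 higher and 22 lower, against 48.5% of the 12902 genes then tested, 23.8% of them lower and 24.6% higher. In the same fit 12 members passed with shDDX41 #2, 4 higher and 8 lower, against 32.9% of genes (16.2% higher and 16.7% lower), and 23 between the hairpins, 3 higher and 20 lower, against 49% (24.3% higher and 24.8% lower). The summed level of the 46 genes was 5886 and 5948 CPM in libraries A and B of that hairpin and 6607 CPM in library D, and in control it was 6485, 6490 and 6956 CPM, again highest in D.

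**Figure D1:**
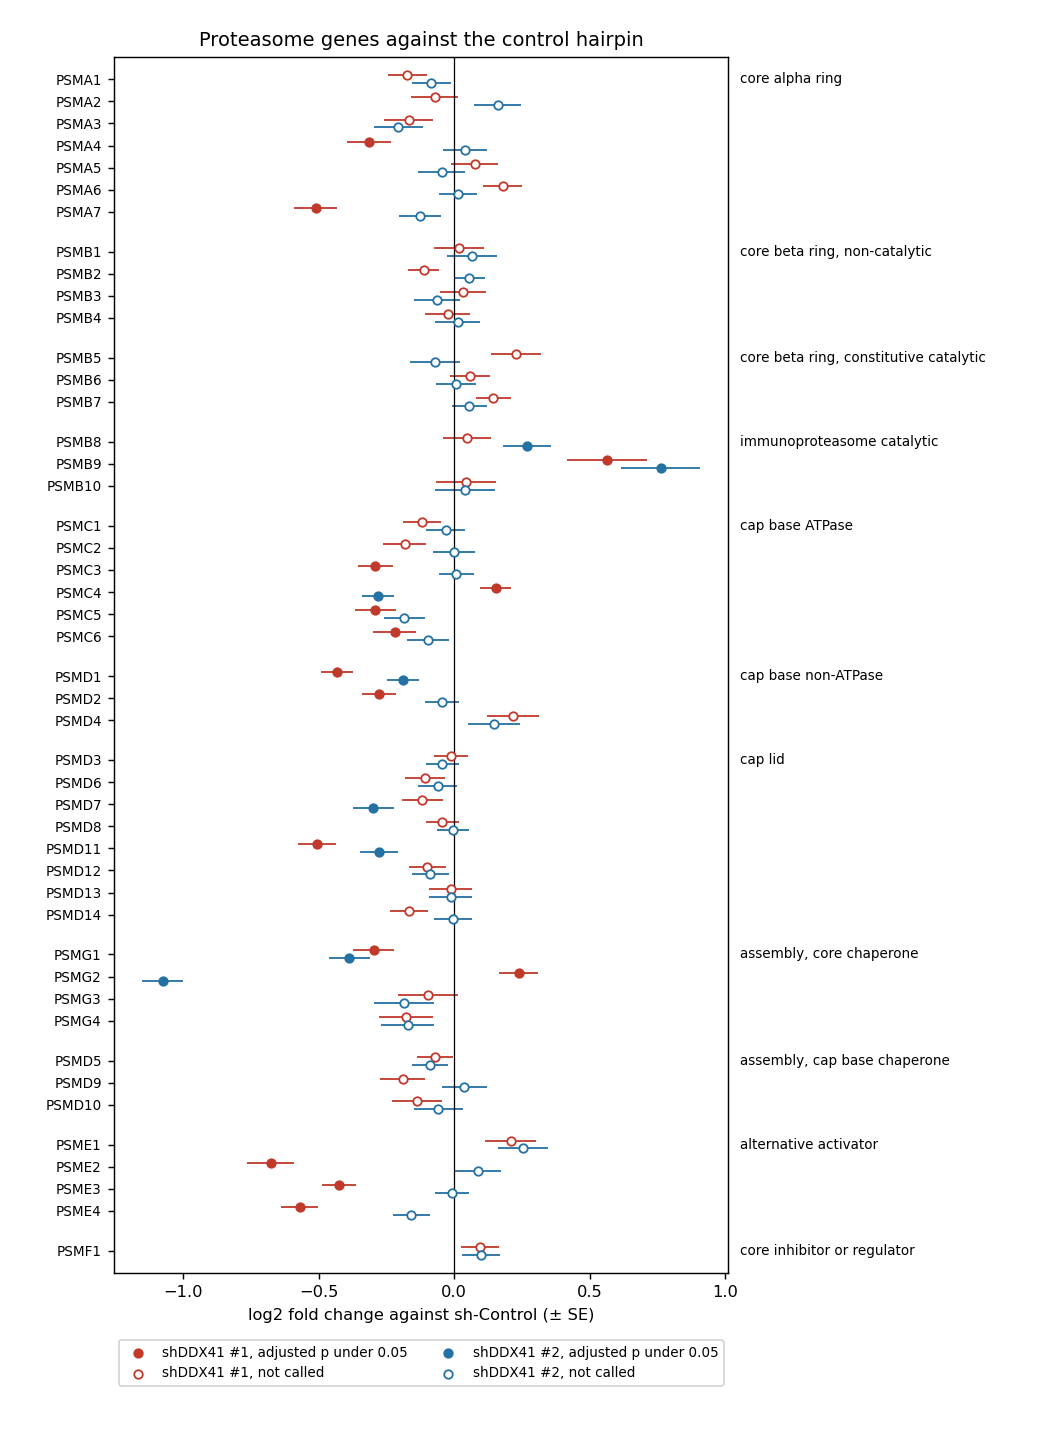
Log2 fold change of each of the 46 tested proteasome genes against sh-Control, with its standard error, for shDDX41 #1 (red) and shDDX41 #2 (blue), grouped by class; filled points passed an adjusted p of 0.05. PSMG2 at -1.08 with shDDX41 #2 was the largest change, and the alternative activators PSME2, PSME3 and PSME4 were lower with shDDX41 #1 alone among the calls against control.

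Beginning with the core, 2 of its 14 constitutive subunits (14.3%, against 47.8% of all tested genes) fell with shDDX41 #1 and 0 were called with shDDX41 #2. The 2 were PSMA7 and PSMA4, both in the alpha ring, which forms the gate of the core. PSMA6 of the same ring, named after its values were seen, lay above control with shDDX41 #1 without overlap. Its change of 0.18 ± 0.07 (SE; adjusted p = 0.0505) was not called by edgeR, while DESeq2 and limma voom called it. It shares 63.9% of its exon bases with another gene on the same strand, and 4 pseudogenes bear its name. With shDDX41 #2, 1 core subunit was under 0.05 by edgeR's unadjusted p, and DESeq2 and limma voom called 0. PSMA7 was at 187, 172 and 202 CPM in the control libraries A, B and D, 121, 127 and 145 with shDDX41 #1 and 175, 175 and 163 with shDDX41 #2. All 3 libraries of the first hairpin were below all others, and the other groups overlapped. The fitted log2 fold change came to -0.51 ± 0.08 (SE; adjusted p = 9.48e-05) with shDDX41 #1 and -0.13 ± 0.08 (SE; adjusted p = 0.26) with shDDX41 #2.

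PSMA4, named after its values were seen like PSMA2, PSMC5, PSMC6 and PSMD2 below, fell by 0.32 ± 0.08 (SE) on the log2 scale with shDDX41 #1 (adjusted p = 0.00498) and by 0.35 ± 0.08 (SE) against shDDX41 #2 (adjusted p = 0.0022). Another alpha subunit, PSMA3, which had the smallest adjusted p of the alpha subunits with shDDX41 #2, was at 205, 206 and 245 CPM in control and 193, 192 and 183 with that hairpin. Here the groups did not overlap, but the change of -0.21 ± 0.09 (SE; adjusted p = 0.108) was not called. It was called in the fit without library D of shDDX41 #1 (adjusted p = 0.0219). PSMA2 differed only between the hairpins (log2 fold change -0.23 ± 0.09 SE, adjusted p = 0.0362), a call lost without library A or B of shDDX41 #1 or without any library of shDDX41 #2 (adjusted p 0.0517 to 0.139). Other genes share 54.1% of the exon bases of PSMA2, mainly AC010132.3 on the same strand, and 3 pseudogenes bear its name.

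None of the structural beta subunits PSMB1 to PSMB4 passed against control in edgeR, and 0 were under 0.05 by its unadjusted p or called by DESeq2 or limma voom. PSMB2 had the smallest adjusted p of the 4 and was at 196, 204 and 200.2 CPM in control, 187, 187 and 181 with shDDX41 #1 and 214, 204 and 205 with shDDX41 #2. Against control its log2 fold change was -0.11 ± 0.06 (SE; adjusted p = 0.118) with shDDX41 #1 and 0.06 ± 0.06 (SE; adjusted p = 0.512) with shDDX41 #2. Between the hairpins it was lower with shDDX41 #1 (log2 fold change -0.17 ± 0.06 SE, adjusted p = 0.0242), a call lost without library A or D of shDDX41 #2 (adjusted p = 0.108 and 0.0537).

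None of the constitutive catalytic subunits passed against control in edgeR, where 2 were under 0.05 by unadjusted p with shDDX41 #1 and 0 with shDDX41 #2, and DESeq2 called 1, with shDDX41 #1. PSMB5, the chymotrypsin-like subunit that proteasome inhibitor drugs bind, was at 92.5, 86.4 and 105 CPM in control, 101, 104 and 128 with shDDX41 #1 and 90.8, 92.7 and 86.9 with shDDX41 #2. The range of shDDX41 #1 overlapped that of control through control library D. Its log2 fold change was 0.23 ± 0.09 (SE; adjusted p = 0.0544) with shDDX41 #1, which passed in 8 of 18 alternatives including the fits without control library D (adjusted p = 0.017) and without library A or B of the hairpin (0.024 and 0.0408). With shDDX41 #2 it was -0.07 ± 0.09 (SE; adjusted p = 0.61). Between the hairpins PSMB5 was higher with shDDX41 #1 by 0.30 ± 0.09 (SE; adjusted p = 0.0147), lost without library D of shDDX41 #2 (adjusted p = 0.0608).

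PSMB6, the caspase-like subunit, ranged from 90.1 to 109 CPM over all 9 libraries, with log2 fold changes of 0.06 ± 0.07 (SE; adjusted p = 0.542) with shDDX41 #1 and 0.01 ± 0.07 (SE; adjusted p = 0.968) with shDDX41 #2. PSMB7, the trypsin-like subunit, was at 155, 157 and 161 CPM in control, 167, 166 and 189 with shDDX41 #1 and 162, 168 and 159.7 with shDDX41 #2. Its libraries of shDDX41 #1 lay above those of control without overlap, but the change of 0.14 ± 0.07 (SE; adjusted p = 0.0817) was not called. With shDDX41 #2 the change was 0.06 ± 0.07 (SE; adjusted p = 0.576).

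Of the immunoproteasome subunits, PSMB9 rose with both hairpins, PSMB8 with shDDX41 #2, and PSMB10 was called in no comparison. The count table held 157, 141 and 169 counts of PSMB9 in control libraries A, B and D. In CPM it was at 8.72, 8.09 and 8.90 in control, 10.3, 11.7 and 16 with shDDX41 #1 and 14.3, 15.8 and 13.5 with shDDX41 #2. Every knockdown library lay above every control library, and library D was the highest of shDDX41 #1. The fitted log2 fold change came to 0.56 ± 0.15 (SE; adjusted p = 0.00571) with shDDX41 #1 and 0.76 ± 0.15 (SE; adjusted p = 0.00159) with shDDX41 #2.

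PSMB9 kept its call in all 18 alternatives for each hairpin, with log2 fold changes of 0.37 to 0.70 and of 0.69 to 0.81. It did not differ between the hairpins by the test (log2 fold change -0.20 ± 0.14 SE, adjusted p = 0.261), but without library D of shDDX41 #1 it was lower with that hairpin (log2 fold change -0.40, adjusted p = 0.0128). Of its exon bases in GENCODE release 29 (chr6:32844136-32859585, GRCh38), 15.1% are shared with PSMB8-AS1 on the same strand, and how shared reads were counted is not stated.

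PSMB8, which lies beside PSMB9 on chromosome 6 and is the inducible counterpart of PSMB5, was at 106, 96.5 and 110.3 CPM in control, 99.6, 98.9 and 125 with shDDX41 #1 and 129, 130.1 and 118 with shDDX41 #2. The libraries of shDDX41 #2 lay above those of control, and those of shDDX41 #1 spanned both groups through library D. Its log2 fold change was 0.27 ± 0.09 (SE; adjusted p = 0.0373) with shDDX41 #2 and 0.05 ± 0.09 (SE; adjusted p = 0.691) with shDDX41 #1. The call with shDDX41 #2 was lost without control library A or B or without any library of that hairpin (adjusted p 0.0518 to 0.135). Between the hairpins it was -0.22 ± 0.09 (SE; adjusted p = 0.0497), lost without control library A, without library A or B of shDDX41 #1 and without any library of shDDX41 #2 (adjusted p 0.0507 to 0.169).

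PSMB10, the inducible counterpart of PSMB7 (chromosome 16), was at 83.5, 68.6 and 88.5 CPM in control, 73.5, 75.4 and 99.2 with shDDX41 #1 and 80.5, 86.6 and 80.1 with shDDX41 #2. Control library B was the lowest of the 9 and library D of shDDX41 #1 the highest. The log2 fold changes were 0.04 ± 0.11 (SE; adjusted p = 0.768) with shDDX41 #1 and 0.04 ± 0.11 (SE; adjusted p = 0.83) with shDDX41 #2. Per kilobase of annotated exon, PSMB9 stood at 9.30 ± 0.46 CPM in control (SD, n = 3) against 67.3 ± 4.5 for PSMB8 and 65.8 ± 8.5 for PSMB10, whose ranges overlapped. Of the myeloid markers, the other 9 beside LYZ had a summed level with shDDX41 #2 that overlapped control. Single markers did not all overlap, since PTPRC, MPO, ITGAM and KIT lay above control with that hairpin and CSF1R below. For KIT this rests on low counts, 32, 44 and 27 with that hairpin.

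Each inducible subunit was then set against the constitutive one it replaces, as the log2 ratio of their CPM within a library, which does not correct for gene length. For PSMB8 over PSMB5 the ratio was 0.20, 0.16 and 0.07 in control, -0.02, -0.07 and -0.04 with shDDX41 #1 and 0.50, 0.49 and 0.44 with shDDX41 #2. The 3 groups did not overlap, with shDDX41 #1 below control by 0.18 and shDDX41 #2 above it by 0.34. For PSMB9 over PSMB6 it was -3.45, -3.46 and -3.51 in control, -3.18, -3.04 and -2.77 with shDDX41 #1 and -2.75, -2.66 and -2.77 with shDDX41 #2. Both hairpins lay above control, by 0.48 and 0.74, and overlapped each other. For PSMB10 over PSMB7 the means were -0.98 ± 0.18, -1.08 ± 0.13 and -0.99 ± 0.03 (SD, n = 3), and all groups overlapped.

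A two-sided exact permutation test of 3 against 3 libraries cannot go below 0.1, and the 5 non-overlapping differences among these 9 comparisons reached p = 0.1, or 0.18 after Benjamini-Hochberg adjustment over the 9. Leaving out any 1 library kept the PSMB8 to PSMB5 difference between 0.30 and 0.36 for shDDX41 #2 and between -0.22 and -0.16 for shDDX41 #1.

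**Figure D2:**
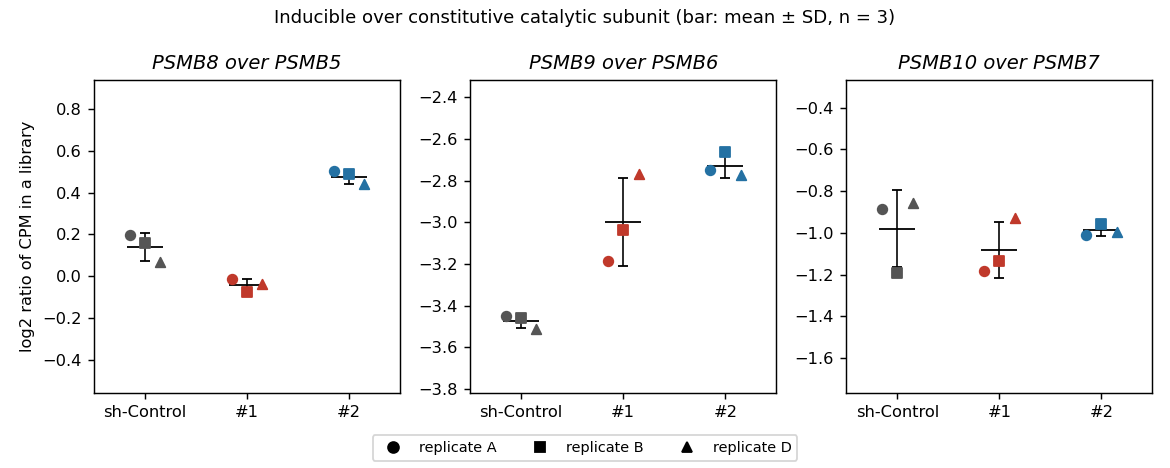
Log2 ratio of the CPM of each inducible catalytic subunit over its constitutive counterpart in each of the 9 libraries, with group means and SD (n = 3); each panel spans the same range of log2 units. PSMB8 over PSMB5 separates all 3 groups, PSMB9 over PSMB6 is higher with both hairpins than in control, and PSMB10 over PSMB7 overlaps throughout.

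Of the 17 base and lid subunits of the cap, 6 fell and 1 rose with shDDX41 #1, and 4 fell and 0 rose with shDDX41 #2 by edgeR, and its unadjusted p, DESeq2 and limma voom likewise gave 0 rises with shDDX41 #2. The called shares, 41.2% and 23.5%, lay near or below the 47.8% and 25% of all tested genes, and the median log2 fold changes were -0.12 and -0.05. By direction, lower calls were 6 of 17 with shDDX41 #1, against 24.1% of all tested genes, and 4 of 17 with shDDX41 #2, against 13.4%. Higher calls were 1 of 17 against 23.7% and 0 of 17 against 11.6%. The summed cap level was 2697, 2736 and 2839 CPM in control, 2431, 2421 and 2631 with shDDX41 #1, and 2622, 2647 and 2570 with shDDX41 #2. All libraries with a DDX41 hairpin lay below all of control, and the mean fell by 9.53% and by 5.23%.

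In the base, 4 of the 6 ATPases, which unfold substrates and open the core, were called with shDDX41 #1, 3 lower and 1 higher. With shDDX41 #2, 1 was called, lower. These shares of 66.7% and 16.7% stand against 47.8% and 25% of all tested genes. PSMC3 had the smallest adjusted p and was at 172, 171 and 177 CPM in control, 134, 139 and 153 with shDDX41 #1 and 177, 177 and 170.1 with shDDX41 #2. Only the first hairpin lay apart, with a log2 fold change of -0.29 ± 0.06 (SE; adjusted p = 0.00162) against control and -0.30 ± 0.06 (SE; adjusted p = 0.00126) against shDDX41 #2, while shDDX41 #2 against control gave 0.01 ± 0.06 (SE; adjusted p = 0.94). PSMC5 fell by 0.29 ± 0.08 (SE) with shDDX41 #1 on the log2 scale (adjusted p = 0.00577). PSMC6 fell by 0.22 ± 0.08 (SE) (adjusted p = 0.0311), a call lost without control library B or D or library A or B of the hairpin (adjusted p up to 0.144).

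PSMC4, another ATPase of the ring, was called in opposite directions with the hairpins. It was at 111, 112 and 114 CPM in control, 127, 125 and 122 with shDDX41 #1 and 90.6, 92.5 and 93.8 with shDDX41 #2. The 3 groups did not overlap. The log2 fold change with shDDX41 #2 was -0.28 ± 0.06 (SE; adjusted p = 0.00269), kept in all 18 alternatives, and the difference between hairpins 0.43 ± 0.06 (SE; adjusted p = 2.33e-05), also kept in all 18. The rise with shDDX41 #1 was 0.15 ± 0.06 (SE; adjusted p = 0.041) and was lost in 11 of 18 alternatives, among them every fit without 1 library except that without library D of shDDX41 #1 (log2 fold change 0.14 to 0.16, adjusted p 0.0636 to 0.105).

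Among the non-ATPase base subunits, PSMD1, the larger scaffold, fell with both hairpins. Its levels were 188, 202 and 199.5 CPM in control, 141, 146 and 149 with shDDX41 #1 and 168, 176 and 172 with shDDX41 #2. The groups did not overlap, with shDDX41 #1 lowest and shDDX41 #2 between. The log2 fold changes were -0.43 ± 0.06 (SE; adjusted p = 3.37e-05), -0.19 ± 0.06 (SE; adjusted p = 0.0292) and, between the hairpins, -0.24 ± 0.06 (SE; adjusted p = 0.00372). The call with shDDX41 #2 was lost without control library B or D or any library of that hairpin (adjusted p 0.0638 to 0.117). PSMD2, the second scaffold, fell by 0.28 ± 0.06 (SE) with shDDX41 #1 (adjusted p = 0.00176). The ubiquitin receptor PSMD4 was not called, at 0.22 ± 0.10 (SE; adjusted p = 0.075) with shDDX41 #1 and 0.15 ± 0.10 (SE; adjusted p = 0.281) with shDDX41 #2. With shDDX41 #1 it passed as higher with upper quartile factors, with no filter on low counts and with the replicate block. It also passed without control library D and without library A or B of that hairpin.

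In the lid, which removes ubiquitin before degradation, the log2 fold changes of all 8 subunits were negative for both hairpins, which share the control libraries. Some were well within their standard error, such as PSMD3 at -0.012 with shDDX41 #1 and PSMD8 at -0.0037 with shDDX41 #2. Only 1 and 2 of the 8 passed, 12.5% and 25% against 47.8% and 25% of all tested genes. PSMD11, a structural subunit of the lid, was at 126, 144 and 131 CPM in control, 96.3, 98.2 and 88.3 with shDDX41 #1 and 115, 108 and 108 with shDDX41 #2. The 3 groups did not overlap. It fell by 0.51 ± 0.07 (SE; adjusted p = 3.52e-05) with shDDX41 #1 and by 0.28 ± 0.07 (SE; adjusted p = 0.00923) with shDDX41 #2, the second call being lost without control library B (adjusted p = 0.0615), and the hairpins differed by -0.23 ± 0.07 (SE; adjusted p = 0.0149), lost without library A of shDDX41 #2 (adjusted p = 0.0729).

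PSMD7, the partner of the deubiquitinase PSMD14, fell with shDDX41 #2. It was at 166, 174 and 194 CPM in control, 156, 155 and 181 with shDDX41 #1 and 143, 146 and 145 with shDDX41 #2, the last group lying below all other libraries. The change was -0.30 ± 0.08 (SE; adjusted p = 0.00999) with shDDX41 #2 and -0.12 ± 0.08 (SE; adjusted p = 0.216) with shDDX41 #1. Of the exon bases of PSMD7, 42.4% overlap AC009120.2 on the opposite strand, and 1 pseudogene bears its name. The strand setting of the counting is not given. The other 6 lid subunits, PSMD3, PSMD6, PSMD8, PSMD12, PSMD13 and PSMD14, were called in no comparison.

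The assembly factors held the largest change of the family. PSMG2, which pairs with PSMG1 to guide the alpha ring, was at 78.6, 84.5 and 89.1 CPM in control, 97.5, 93.4 and 106 with shDDX41 #1 and 41.9, 39.4 and 38.3 with shDDX41 #2. With shDDX41 #2 all libraries were at or below 41.9 CPM, and the 3 groups did not overlap. The log2 fold change with shDDX41 #2 was -1.08 ± 0.07 (SE; adjusted p = 2.03e-07), so that its level fell by 52.6%, and it stayed between -1.12 and -1.03 in all 18 alternatives. With shDDX41 #1 it was higher by 0.24 ± 0.07 (SE; adjusted p = 0.0133), a call lost without control library A (log2 fold change 0.19, adjusted p = 0.0582). Between the hairpins PSMG2 differed by 1.31 ± 0.07 (SE; adjusted p = 7.64e-09).

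The gene spans chr18:12658043-12725740 (GRCh38, + strand), and 14.7% of its exon bases overlap CEP76 on the opposite strand. CEP76, looked up after the PSMG2 values were seen, was at 24.6, 28.7 and 25.5 CPM in control, 21.4, 21.1 and 21 with shDDX41 #1 and 26.3, 26.9 and 25.2 with shDDX41 #2, the last group overlapping control (log2 fold change -0.01 ± 0.08 SE, adjusted p = 0.962).

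PSMG1 fell with both hairpins. It was at 82.3, 84.6 and 90.9 CPM in control, 65.9, 66.9 and 77 with shDDX41 #1 and 66.4, 68.4 and 62.4 with shDDX41 #2. Every DDX41 hairpin library lay below every control library, and the hairpins overlapped. The fitted log2 fold change came to -0.30 ± 0.07 (SE; adjusted p = 0.00416) with shDDX41 #1, -0.39 ± 0.07 (SE; adjusted p = 0.0017) with shDDX41 #2 and 0.09 ± 0.08 (SE; adjusted p = 0.346) between them, and both falls kept their calls in all 18 alternatives. PSMG3 and PSMG4, the second chaperone pair of the alpha ring, were not called, with log2 fold changes of -0.10 and -0.18 with shDDX41 #1 and -0.18 and -0.17 with shDDX41 #2. As a sum, these 4 core chaperones were at 221, 230 and 253 CPM in control, 216, 218 and 250 with shDDX41 #1 and 164, 169 and 156 with shDDX41 #2.

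POMP, the maturation factor that brings in the beta ring and is named outside the PSM symbols, was at 159, 158 and 197 CPM in control, 159.5, 161 and 192 with shDDX41 #1 and 173, 185 and 159 with shDDX41 #2. All groups overlapped, with log2 fold changes of -0.01 ± 0.10 (SE; adjusted p = 0.965) and 0.01 ± 0.10 (SE; adjusted p = 0.945). The 3 chaperones of the cap base, PSMD5, PSMD9 and PSMD10, were not called against control by edgeR, DESeq2 or limma voom, with 1 under 0.05 by edgeR's unadjusted p with shDDX41 #1 and 0 with shDDX41 #2. PSMD9 had the smallest adjusted p of them with shDDX41 #1 (-0.19 ± 0.08 SE, adjusted p = 0.0744) and PSMD5 with shDDX41 #2 (-0.09 ± 0.07 SE, adjusted p = 0.356). Without library D of shDDX41 #1, at 48.8 CPM against 38.9 and 39.8 in its partners, PSMD9 was lower with that hairpin (log2 fold change -0.29, adjusted p = 0.00237). Between the hairpins PSMD9 was lower with shDDX41 #1 (-0.23 ± 0.08 SE, adjusted p = 0.036), lost without library A or B of either hairpin (adjusted p 0.105 to 0.139).

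Among the 4 alternative activators, PSME2, PSME3 and PSME4 fell with shDDX41 #1 and were called lower than with shDDX41 #2, and 0 were called with shDDX41 #2 against control. The called shares were 75% with shDDX41 #1 and 75% between the hairpins, against 47.8% and 48.8% of all tested genes. With shDDX41 #2, 25% of all tested genes were called. With shDDX41 #2, 2 of the 4 were under 0.05 by edgeR's unadjusted p, DESeq2 called 1, PSME1, and limma voom 0. Their summed level was 621, 625 and 616 CPM in control, 469, 478 and 495 with shDDX41 #1 and 630, 631 and 628 with shDDX41 #2.

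PSME2, the beta subunit of the interferon-inducible PA28 ring, was at 104, 100.2 and 115 CPM in control, 60.2, 63.5 and 76.3 with shDDX41 #1 and 114, 117 and 109 with shDDX41 #2. Every library of shDDX41 #1 lay below all others. The fitted log2 fold change came to -0.68 ± 0.09 (SE; adjusted p = 1.58e-05) with shDDX41 #1, 0.09 ± 0.08 (SE; adjusted p = 0.478) with shDDX41 #2 and -0.77 ± 0.09 (SE; adjusted p = 4.47e-06) between the hairpins. Its partner PSME1, the alpha subunit of the same ring, was at 104, 92.1 and 109 CPM in control, 106, 109 and 137 with shDDX41 #1 and 125, 122 and 117 with shDDX41 #2. The libraries of shDDX41 #2 were all above control, and those of shDDX41 #1 overlapped it.

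The change of PSME1 was 0.21 ± 0.09 (SE; adjusted p = 0.0764) with shDDX41 #1 and 0.25 ± 0.09 (SE; adjusted p = 0.0572) with shDDX41 #2, neither called, while in 6 and 9 of 18 alternatives it passed as higher. The fits that gave this call included those without control library D (adjusted p = 0.0494 and 0.0459), without library A of shDDX41 #1 (0.0311 and 0.0422) and without library B of shDDX41 #1 (0.0492 and 0.0486), and for shDDX41 #2 also that without library D of shDDX41 #1 (0.0037). The log2 fold changes of the 2 partners thus had opposite signs with shDDX41 #1. PSME2 shares 1.48% of its exon bases with other genes, and 2 pseudogenes are annotated under its name.

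PSME3, the nuclear activator PA28 gamma, was at 266, 271 and 251 CPM in control, 201, 199 and 186 with shDDX41 #1 and 255, 259 and 269.9 with shDDX41 #2. Only shDDX41 #1 stood apart, at -0.43 ± 0.06 (SE; adjusted p = 5.25e-05) against control and -0.42 ± 0.06 (SE; adjusted p = 5.79e-05) against shDDX41 #2, with -0.01 ± 0.06 (SE; adjusted p = 0.94) for shDDX41 #2 against control. PSME4, the large monomeric activator PA200 that acts on acetylated histones, was at 147, 162 and 140.0 CPM in control, 101, 106 and 95.2 with shDDX41 #1 and 137, 134 and 132 with shDDX41 #2. Both hairpins lay below control without overlap, and the change was -0.57 ± 0.07 (SE; adjusted p = 1e-05) with shDDX41 #1, -0.16 ± 0.07 (SE; adjusted p = 0.104) with shDDX41 #2, which was not called, and -0.41 ± 0.07 (SE; adjusted p = 0.000188) between them. PSMF1, a regulator that binds the core and can inhibit it, was called in no comparison (log2 fold changes 0.09 and 0.10).

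**Figure D3:**
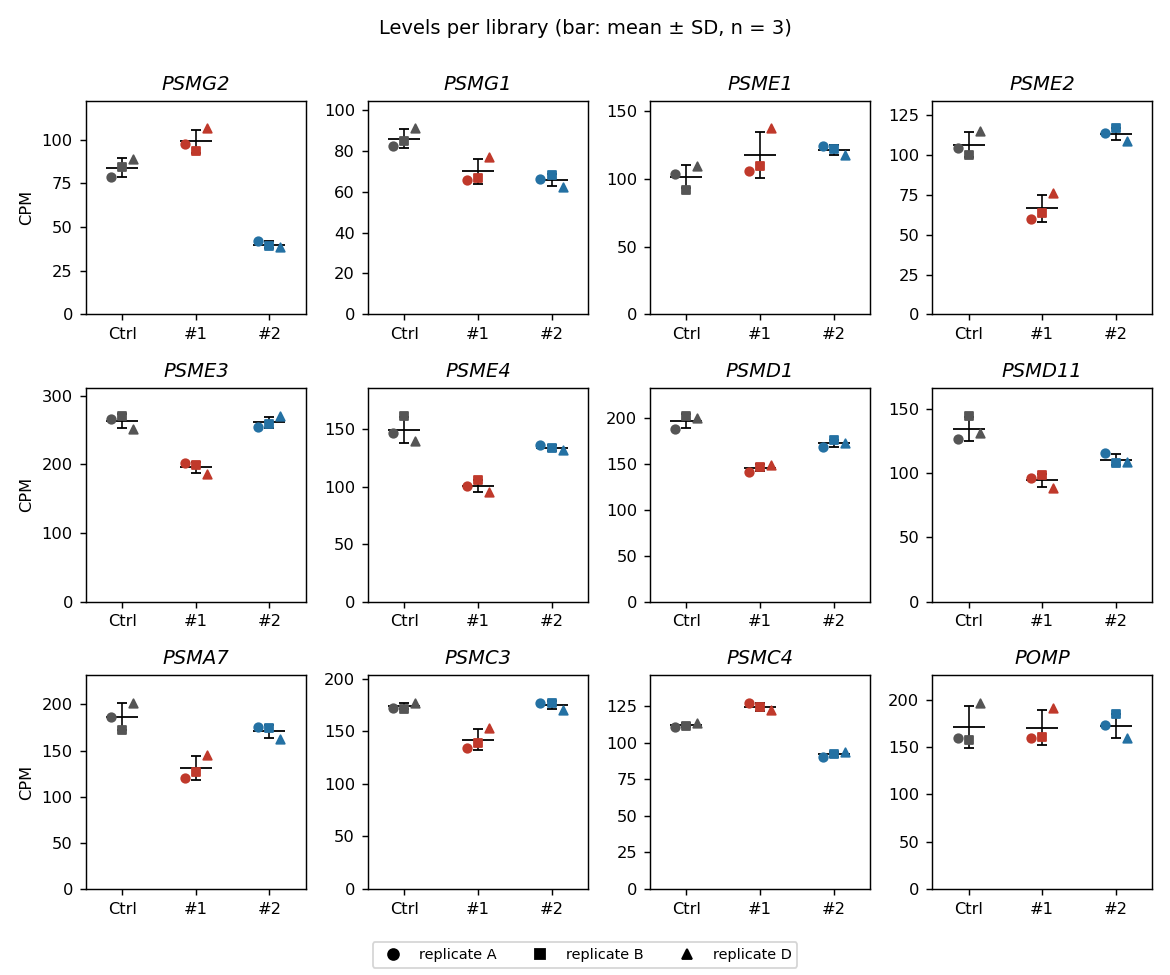
CPM in each library for 12 genes, with group means and SD (n = 3), axes from 0; Ctrl is sh-Control and #1 and #2 are the DDX41 hairpins. PSMG2 is lowest with shDDX41 #2, PSME2, PSME3, PSME4, PSMA7 and PSMC3 are lowest with shDDX41 #1, and POMP overlaps in all groups.

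Setting both hairpins side by side, PSMG1, PSMD1 and PSMD11 were lower with both, PSMB9 was higher with both, and PSMC4 and PSMG2 were called in opposite directions, higher with shDDX41 #1 and lower with shDDX41 #2. These comparisons share the control libraries. Against the other hairpin, PSMA4, PSMA7, PSMC3, PSMD1, PSMD2, PSMD11, PSME2, PSME3 and PSME4 were lower with shDDX41 #1, along with PSMA2, PSMB2, PSMB8 and PSMD9, while PSMB5, PSMC4 and PSMG2 were higher. A total of 25 tested members passed in none of the 3 comparisons. The remaining 2 members were not tested: PSMA8, a testis alpha subunit, and PSMB11, the thymus-specific catalytic subunit, each had 0 counts in all 9 libraries, and the limit that 0 counts allow is 3 counts in a library.

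**Figure D4:**
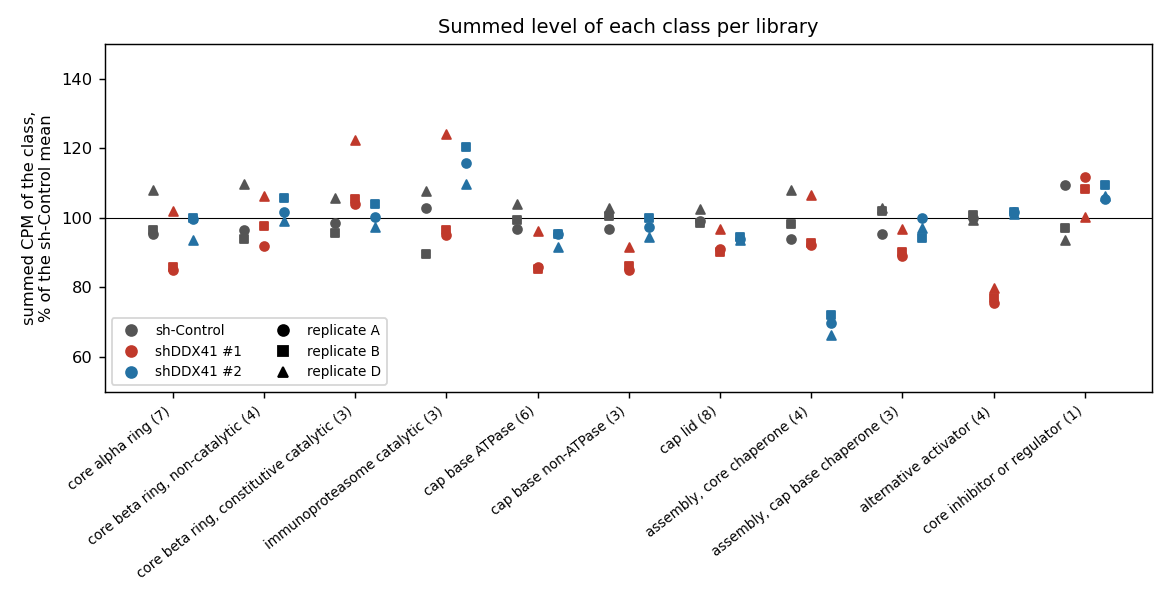
Summed CPM of each class in each library, as a percent of the sh-Control mean of that class, with the number of genes in brackets; the axis runs from 50% to 150%. The alternative activators lie at 75.5% to 79.7% with shDDX41 #1, and the core chaperones at 66.3% to 71.9% with shDDX41 #2.

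Levels differed widely between subunits of 1 particle. Per kilobase of annotated exon in control, PSMB1 was the highest at 325 ± 38 CPM (SD, n = 3), followed by PSMA3 at 224 ± 23, and PSMG4 the lowest at 4.86 ± 0.44, below PSMB9. PSMB1 did not overlap PSMA3, while PSMA7 and PSMA2 (119 ± 9.4 and 118 ± 9.7) did not differ beyond their spread. The class medians were 118 CPM per kilobase for the alpha ring, 111 for the constitutive catalytic subunits, 65.8 for the immunoproteasome subunits, 58.2 for the ATPases and 29.3 for the core chaperones. The lengths count every annotated exon of a gene, rarely used ones included, and 17 of the 48 genes share exon bases with another gene. Among those 17 the share ran from 0.0423% for PSME4 to 82.1% for PSMC1.

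Outside the PSM symbols, genes bound to the proteasome or delivering substrates to it were also called in both directions. Of 20 tested, 4 rose and 6 fell with shDDX41 #1, 0 rose and 6 fell with shDDX41 #2, and 5 were higher and 5 lower with shDDX41 #1 than with shDDX41 #2. These shares of 50%, 30% and 50% lay near the 47.8%, 25% and 48.8% of all tested genes, and the medians were -0.03, -0.07 and 0.06. For the rises with shDDX41 #2, edgeR's unadjusted p, DESeq2 and limma voom also gave 0. UBQLN2, a shuttle that carries ubiquitinated proteins to the cap, rose with shDDX41 #1 (0.72 ± 0.10 SE, adjusted p = 3.06e-05). UBQLN4 fell with shDDX41 #2 (-0.52 ± 0.07 SE, adjusted p = 9.67e-05). ZFAND5, a proteasome activator, was called in opposite directions with the hairpins. It fell with shDDX41 #2 (-0.28 ± 0.07 SE, adjusted p = 0.00721) and rose with shDDX41 #1 (0.22 ± 0.07 SE, adjusted p = 0.0137).

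Regulators of proteasome gene transcription were called in 7 of 15 cases with shDDX41 #1, 2 higher and 5 lower, in 2 with shDDX41 #2, both lower, and in 7 between the hairpins, 3 higher and 4 lower. The called shares were 46.7%, 13.3% and 46.7% against 47.8%, 25% and 48.8% of all tested genes, with medians of -0.11, -0.12 and -0.05. NFE2L1 was at 151, 155 and 142 CPM in control, 188, 185 and 168 with shDDX41 #1 and 146, 137 and 147 with shDDX41 #2. It rose with shDDX41 #1 (0.27 ± 0.07 SE, adjusted p = 0.00328), and the change with shDDX41 #2 was -0.06 ± 0.07 (SE; adjusted p = 0.514). NGLY1, which deglycosylates the NFE2L1 protein on its way to activation, fell with shDDX41 #1 (-0.48 ± 0.07 SE, adjusted p = 3.92e-05). DDI2, the protease that cleaves it, was at 11.7, 12.2 and 10.4 CPM in control and 6.05, 8.48 and 6.42 with shDDX41 #2, a log2 fold change of -0.70 ± 0.16 (SE; adjusted p = 0.00601). FOXO3 fell with shDDX41 #1 (-0.76 ± 0.10 SE, adjusted p = 1.35e-05), and NFYA, a subunit of the CCAAT-binding factor, fell with both hairpins (-0.42 ± 0.07 SE, adjusted p = 0.000205 and -0.24 ± 0.07 SE, adjusted p = 0.0224), the second call being lost without control library B or any library of shDDX41 #2 (adjusted p 0.0519 to 0.0941). The other subunits, named after their values were seen, differed in direction with shDDX41 #1. NFYC rose (0.30 ± 0.08 SE, adjusted p = 0.00517) and NFYB fell (-0.43 ± 0.08 SE, adjusted p = 0.000481). Neither was called with shDDX41 #2 (adjusted p = 0.96 and 0.0775).

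Of 10 ubiquitin and ubiquitin-activating or conjugating genes, 2 rose and 4 fell with shDDX41 #1, and 2 were higher and 4 lower between the hairpins, 60% each time against 47.8% and 48.8% of all tested genes. UBA6, the second ubiquitin-activating enzyme, fell with shDDX41 #1 (-0.85 ± 0.08 SE, adjusted p = 5.4e-07), as did the conjugating enzyme UBE2K (-0.32 ± 0.06 SE, adjusted p = 0.000915).

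The interferon-gamma and class I presentation genes, which share inducers with PSMB8, PSMB9, PSME1 and PSME2, were called higher in 6 and lower in 2 of 17 with shDDX41 #1, and higher in 10 and lower in 1 with shDDX41 #2. Between the hairpins 3 were higher and 8 lower with shDDX41 #1. Of all tested genes, 23.7% were higher and 24.1% lower with shDDX41 #1, 11.6% and 13.4% with shDDX41 #2 and 24.6% and 24.2% between the hairpins, and the list's medians were 0.08, 0.28 and -0.15. TAP1, the head-to-head neighbour of PSMB9 shown above, was at 35.5, 34.7 and 37.8 CPM in control, 45, 47.5 and 44.1 with shDDX41 #1 and 49.1, 50.8 and 45.9 with shDDX41 #2. Every DDX41 hairpin library lay above control (0.34 ± 0.07 SE, adjusted p = 0.00124 and 0.43 ± 0.07 SE, adjusted p = 0.000478). IRF8, a myeloid transcription factor of the interferon regulatory factor family, rose with both hairpins. Its log2 fold change was 0.88 ± 0.07 (SE; adjusted p = 7.87e-08) with shDDX41 #1 and 0.27 ± 0.07 (SE; adjusted p = 0.00675) with shDDX41 #2. HLA-E rose with shDDX41 #2 (0.57 ± 0.08 SE, adjusted p = 0.000104) and was not called with shDDX41 #1 (adjusted p = 0.786). CALR, a chaperone that folds class I molecules, fell with both hairpins. Its change was -1.20 ± 0.07 (SE; adjusted p = 5.57e-09) with shDDX41 #1 and -0.19 ± 0.07 (SE; adjusted p = 0.0463) with shDDX41 #2.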

How the data were processed

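Poly(A)-selected RNA of GFP-sorted MOLM13 cells was sequenced in 9 libraries. The authors deposited whole-number read counts per gene symbol, not normalized; their processing notes name FastQC 0.11.7, HISAT2 2.0.5, featureCounts 1.5.2 and the builds hg38 and mm10 without a role, so human coordinates come from GENCODE release 29 (GRCh38). The kit is stranded per the labels but not in the methods, and the handling of multi-mapped reads and the strand setting of the counting are not given in the sources used here, so genes that overlap another gene or have pseudogenes are uncertain. All columns matched a label (0 unmapped), and 0 rows lacked a gene name.

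Counts were filtered with filterByExpr (minimum count 10), scaled by TMM (factors 0.963 to 1.02) and fitted over all 9 libraries by group, without a replicate term, in edgeR 4.0.16 (R 4.3.3) with its quasi-likelihood test. The 3 contrasts were each hairpin against sh-Control and the hairpins against each other, with Benjamini-Hochberg adjustment over 12712 genes and a threshold of 0.05. The standard error is the log2 fold change divided by the square root of F. Library totals ran from 16385238 to 20510032, and edgeR's common biological coefficient of variation was 0.0768. The fit was tested on simulated data. The members, classes and other gene lists were chosen with earlier results of these data known.

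Genes named in full were PSMB5 to PSMB10, PSME1, PSME2, POMP, NFE2L1 and DDX41, the smallest adjusted p in each class and contrast, the 3 largest called rises and falls per contrast, and the 2 called genes with the smallest adjusted p in each other list; some genes this rule names are not reported here. Alternatives were other scalings (DESeq2 size factors, upper quartile, library size), other filters, DESeq2 1.42.0, limma 3.58.1 voom, fits on 6 libraries, a replicate block, a threshold of 0.01, and each library left out. No separate batch is given in the labels beyond the replicate letters.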

Additional observations from a re-analysis of the deposited data

How the results depend on the processing

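Over all alternatives, 1529 values kept their direction and side of the threshold, 64 called values lost and 29 uncalled values gained a call, and 34 small uncalled values changed sign. The count of members called was 13 to 25 for shDDX41 #1 with 1 library left out (1 to 6 higher, 11 to 22 lower), 5 to 12 for shDDX41 #2 (1 to 4 higher), and 12 to 23 between the hairpins (2 to 5 higher, 9 to 20 lower). The highest counts came without library D of shDDX41 #1 and the lowest for shDDX41 #2, 5, without control library B. Higher calls with shDDX41 #1 numbered 8 with upper quartile factors, which shift the median of all genes to 0.0875, 5 with no filter on low counts, 5 with at least 10 counts in every library, 5 with DESeq2's Wald test and 1 at an adjusted p under 0.01. With shDDX41 #2 they numbered 4 when only the 6 libraries compared were fitted and 1 at 0.01. Between the hairpins, 10 passed at 0.01, 8 of them lower, and higher calls were 5 with upper quartile factors and 5 with library size only. The causes were not tested.

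The labels do not say what a replicate letter marks, and the letters were not taken as pairs, since the correlation of same-letter deviations was not above 0.1 for every pair. Between control and shDDX41 #1 it was 0.0725, 0.158 and 0.243 for A, B and D, and every library correlated best with its own letter, which is a hint from the data and not from the design. The pairs that include shDDX41 #2 ran from -0.0574 to 0.0225. With the replicate block, 22, 9 and 19 members passed in the 3 contrasts in place of 15, 8 and 16, and 7 were higher with shDDX41 #1.

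All sign changes concerned uncalled values. For POMP the log2 fold change with shDDX41 #1 was 0.070 with upper quartile factors and 0.0042 with at least 10 counts in every library, with shDDX41 #2 it was -0.0085 with library size only, and between the hairpins 0.025 with upper quartile factors. PSMB6 with shDDX41 #2 was -0.014 with library size only. PSMB10 between the hairpins was -0.0028 with DESeq2 size factors, -0.0047 with no filter, -0.0026 with DESeq2's Wald test, -0.0091 with limma voom, -0.0065 with only the 6 libraries compared and -0.0094 with the replicate block. With 1 library left out, the ranges with shDDX41 #1 were -0.061 to 0.109 for PSMB8, -0.098 to 0.126 for PSMB10 and -0.087 to 0.104 for POMP. With shDDX41 #2 they were -0.129 to 0.0093 for PSMB5, -0.036 to 0.052 for PSMB6, -0.056 to 0.114 for PSMB10 and -0.044 to 0.121 for POMP. Between the hairpins they were -0.012 to 0.090 for PSMB6, -0.145 to 0.079 for PSMB10, -0.170 to 0.019 for PSME1 and -0.107 to 0.037 for POMP.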
